A study of Mus musculus with 45 samples.

Results

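The 1660 sites described here are the places on chromosomes 1 to 19 where CIC was enriched in the cerebellum of mice with an expanded Atxn1 allele over mice whose cerebellum lacks CIC. They were all 1-bp summits of 1 deposited peak list on those chromosomes, collapsed so that summits of the same numbered peak counted once. The 3 lists of the series together held 7213 peaks over all chromosomes. By their names, only the list used here had repeat-rich peaks removed, so the sizes of the lists cannot be compared. The assay was CUT&RUN, in which an antibody held on chromatin directs a nuclease to cut out the DNA around the bound protein, and the cut fragments are sequenced. Atxn1 154Q/2Q mice (154Q below) carry 1 knock-in allele with 154 CAG repeats beside a normal allele with 2, and their Cic gene is normal. CIC KO mice are Engrailed1-Cre;Cic fl/fl, with Cre expressed from the Engrailed1 locus, so Cic is removed in the Engrailed1 lineage and cells outside that lineage may keep it. Both groups had 4 C57BL/6 mice of 10 weeks, and cerebellar nuclei of each mouse were split over 3 antibodies, for 45 libraries from 15 mice in the series.

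The CIC libraries of the 4 154Q mice were merged and compared by the authors with the merged CIC libraries of the 4 CIC KO mice. The list is therefore 1 observation without replicate error, and no difference below was tested. The ranges given with percentages are 95% Wilson intervals and reflect only how many peaks were counted. Each summit carries 1 value, the −log10 q of its enrichment over the CIC KO libraries, which measures significance and grows with read depth, so it is not a level of occupancy. Peak width, fold enrichment and read depth are not given at the summits.

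CIC (Capicua) is an HMG-box repressor that binds a short AT-rich sequence with TGAATG at its core and keeps target genes low until RAS-ERK signalling releases it. Its known targets are the ETS factors of the PEA3 group and feedback brakes of the same pathway, such as the Sprouty, Spred and dual-specificity phosphatase families. In the brain, CIC binds ATXN1, the protein whose expanded glutamine tract causes spinocerebellar ataxia type 1.

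The sequences under the strongest summits show what these sites look like. Each runs from 50 bases before to 50 after the summit in GRCm38, 5′ to 3′ on the strand given, with a CIC octamer in capitals. The octamer here is any of TGAATGAA, TGAATGGA, TCAATGAA and TCAATGGA on either strand. The first set holds octamers at ETS genes, Spred genes and other strong sites, promoter and distal.
60688 bp from Mrc2 (peak 1), chr11:105353306-105353406, plus strand: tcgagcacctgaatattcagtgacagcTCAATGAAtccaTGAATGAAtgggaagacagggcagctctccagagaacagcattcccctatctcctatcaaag
Etv5 promoter (peak 4), chr16:22439848-22439948, minus strand: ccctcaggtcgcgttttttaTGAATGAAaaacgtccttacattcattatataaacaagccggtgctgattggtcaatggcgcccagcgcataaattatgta
Clstn2 intron (peak 6), chr9:97685743-97685843, plus strand: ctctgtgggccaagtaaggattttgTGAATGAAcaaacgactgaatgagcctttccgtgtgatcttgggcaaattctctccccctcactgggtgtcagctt
Spred1 first intron (summit 3 of peak 7), chr2:117123107-117123207, minus strand: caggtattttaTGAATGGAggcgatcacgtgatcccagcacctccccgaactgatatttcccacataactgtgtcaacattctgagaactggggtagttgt
Etv4 promoter (peak 9), chr11:101785356-101785456, plus strand: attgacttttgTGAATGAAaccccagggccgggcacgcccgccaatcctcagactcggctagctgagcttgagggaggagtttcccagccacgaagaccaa
Etv1 inner promoter (peak 11), chr12:38780729-38780829, minus strand: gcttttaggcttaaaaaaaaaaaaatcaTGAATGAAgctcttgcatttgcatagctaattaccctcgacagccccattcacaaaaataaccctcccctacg
Spred2 first intron (peak 14), chr11:19925975-19926075, minus strand: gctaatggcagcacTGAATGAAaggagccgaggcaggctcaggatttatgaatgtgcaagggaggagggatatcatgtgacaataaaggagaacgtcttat
Mafg promoter (peak 15), chr11:120633560-120633660, minus strand: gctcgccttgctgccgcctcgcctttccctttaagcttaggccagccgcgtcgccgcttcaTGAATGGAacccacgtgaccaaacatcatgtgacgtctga
Ube2n promoter (peak 18), chr10:95514746-95514846, plus strand: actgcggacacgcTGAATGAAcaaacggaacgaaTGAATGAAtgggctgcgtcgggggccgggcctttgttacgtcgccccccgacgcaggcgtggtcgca

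Other strong summits held no octamer within those 50 bases to either side but did hold the 6-base core TGAATG, which is in capitals in the next set. These are shown because in each of them the core followed TTA or TTG, or was followed by GG. The core is part of TGAATGAA and TGAATGGA.
174930 bp from Sipa1l2 (peak 5), chr8:125317730-125317830, minus strand: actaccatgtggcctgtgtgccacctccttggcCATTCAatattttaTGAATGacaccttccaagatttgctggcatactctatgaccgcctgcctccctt
Dusp4 promoter (peak 8), chr8:34807068-34807168, plus strand: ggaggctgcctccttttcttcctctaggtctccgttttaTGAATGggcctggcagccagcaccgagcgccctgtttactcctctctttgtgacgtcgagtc
Etv5 first intron (peak 10), chr16:22438512-22438612, minus strand: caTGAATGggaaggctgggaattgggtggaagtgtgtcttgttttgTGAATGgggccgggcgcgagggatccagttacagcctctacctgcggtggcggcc
Pip4k2b promoter (peak 22), chr11:97745292-97745392, plus strand: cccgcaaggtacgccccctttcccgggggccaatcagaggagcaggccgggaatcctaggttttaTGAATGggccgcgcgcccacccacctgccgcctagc
1058 bp upstream of Id1 (peak 40), chr2:152735143-152735243, plus strand: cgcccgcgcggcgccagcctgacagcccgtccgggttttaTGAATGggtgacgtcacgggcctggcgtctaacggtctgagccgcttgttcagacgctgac

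Finally, 1 promoter with neither an octamer nor the core, and 1 intron with 5 octamers in a row, are shown for contrast.
Hsd17b12 promoter (peak 3), chr2:94157979-94158079, plus strand: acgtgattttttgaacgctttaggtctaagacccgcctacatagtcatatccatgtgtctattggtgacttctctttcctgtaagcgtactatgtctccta
Rasgef1c intron (peak 203), chr11:49938913-49939013, minus strand: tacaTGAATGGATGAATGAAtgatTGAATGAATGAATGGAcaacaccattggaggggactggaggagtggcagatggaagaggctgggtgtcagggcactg

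The −log10 q fell steeply down the list. The strongest peak, which lay between genes 60688 bp from the nearest protein-coding start (Mrc2, an endocytic collagen receptor), reached 922, and the median peak 3.81 (quartiles 2.04 and 7.41). Only 286 peaks reached 10, 45 reached 50, 19 reached 100 and 8 reached 300. The 10 strongest peaks held 24.7% of the summed −log10 q of the list and the 100 strongest held 53.9%. At the weak end 242 peaks lay under 1.5, and just inside the q threshold of 0.05, a −log10 q of 1.301, were peaks near Chgb at 1.3055, Pfkfb2 at 1.3058 and Maco1 at 1.307. Peaks just outside that threshold are not in the list. Many values repeated: 1021 peaks (61.5%) shared theirs with at least 1 other, so ranks among the weak peaks are not resolved.

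**Figure D1:**
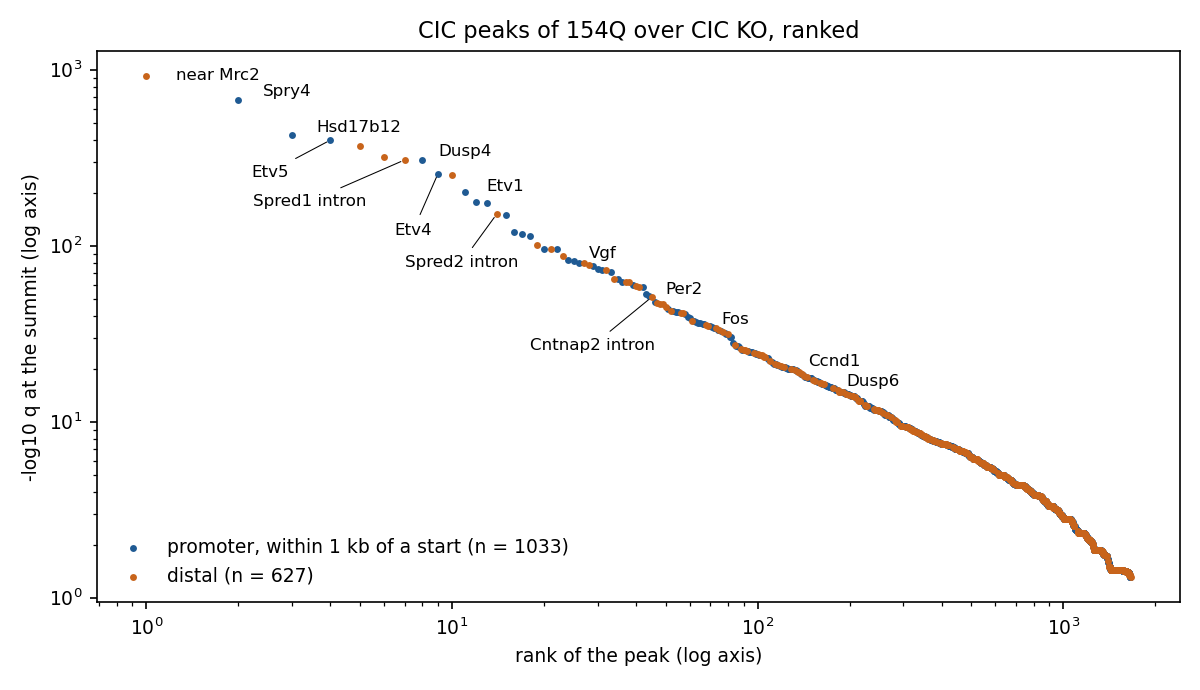
The −log10 q at the summit of each of the 1660 peaks (y axis, log scale) against its rank (x axis, log scale), for promoter peaks within 1 kb of an annotated start (blue, n = 1033) and distal peaks (orange, n = 627). Each point is 1 peak. Both kinds are found at every strength, from 922 near Mrc2 down to 1.31.

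The established CIC targets lay near the top. Of 12 genes listed as such, 11 had a peak between 5 kb upstream and the end of the gene, while 7.24% of 20780 protein-coding genes did (1505 genes). The study names 4 of these targets (Etv4, Etv5, Spry4 and Spred1) from these libraries, so this count is not independent evidence. Within 1 kb of a start the count was 9 of 12, beside 5.04% of all protein-coding genes. Shc3 is not among the 9, since only starts of the basic annotation counted and its nearest one was 2423 bp away, although its peak lay 88 bp upstream of the longest gene model. Across the 11 bound targets the highest −log10 q per gene ran from 674 at Spry4 to 9.48 at Spred3, with a median of 200.99, and the median over all bound genes was 4.36. Spry2, a Sprouty brake like Spry4, was the target without a peak. Its nearest peak was 2424342 bp away.

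All 3 PEA3-group ETS activators were bound, by 8 peaks in all. Etv5 had 3: 179 bp upstream of its start at 398, in the first intron at 253, and in a later intron 10646 bp into the gene at 27.4. Etv1 had 4. The peak 704 bp upstream of the gene reached 74.1, the peak at an inner start in the first intron 200.99, and those further into the gene 41.5 and 11.5. Etv4 had a single peak, 35 bp upstream of its start, at 257. The strongest peak of each of these genes thus sat within 1 kb of a start, and each of those summits held TGAATGAA. None of 20 other ETS factors had a peak, a count whose 95% interval reaches 16.1%.

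The Sprouty and Spred brakes, which hold back RAS-ERK signalling, differed in where their peaks lay. Spry4 had 1 peak, 2 bp from its start, at 674. Spred1 had its stronger peak in the first intron 1618 bp into the gene, at 307, and a weaker one 928 bp upstream of the start at 21.8. Spred2 had 4 peaks, at 22.2 in a site 4346 bp upstream, 8.26 at the promoter, 151 in the first intron 1650 bp into the gene and 6.15 further into that intron. At both Spred1 and Spred2 the strongest summit lay in the first intron, over 1 kb from a start. The same Spred2 peak also had a summit of 103 at 954 bp from a start, within the promoter distance of 1 kb. Spred3 had 2 peaks at an inner start, at 9.48 and 9.46.

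Dual-specificity phosphatases inactivate MAP kinases, and the strongest values among them were at promoters. Dusp4 reached 307 at 179 bp upstream of the start, Dusp5 35.7 at 40 bp and Dusp6 15.7 at 107 bp. Dusp5 also had 3 intergenic peaks within 1122 bp of one another, at 2.70, 6.73 and 7.11, which lay over 5 kb upstream and do not count as bound to it, with the start of another transcript nearer. Among 34 other brakes of RAS-ERK signalling 7 were bound, beside 7.24% of all protein-coding genes. At a −log10 q of at least 3 the count was 3, beside 4.63% of all protein-coding genes. Within 1 kb of a start it was also 3, beside 5.04%. The 7 were led by Dusp5 and Nf1, the neurofibromin RAS inactivator, at 35.7 and 26.9. Dok2 reached 7.66, and Rasa3, Dusp7, Dab2ip and Dusp1 lay between 1.44 and 2.19. The Nf1 peak lay 120 bp upstream of the gene, and the Dok2 peak 740 bp inside it.

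**Figure D2:**
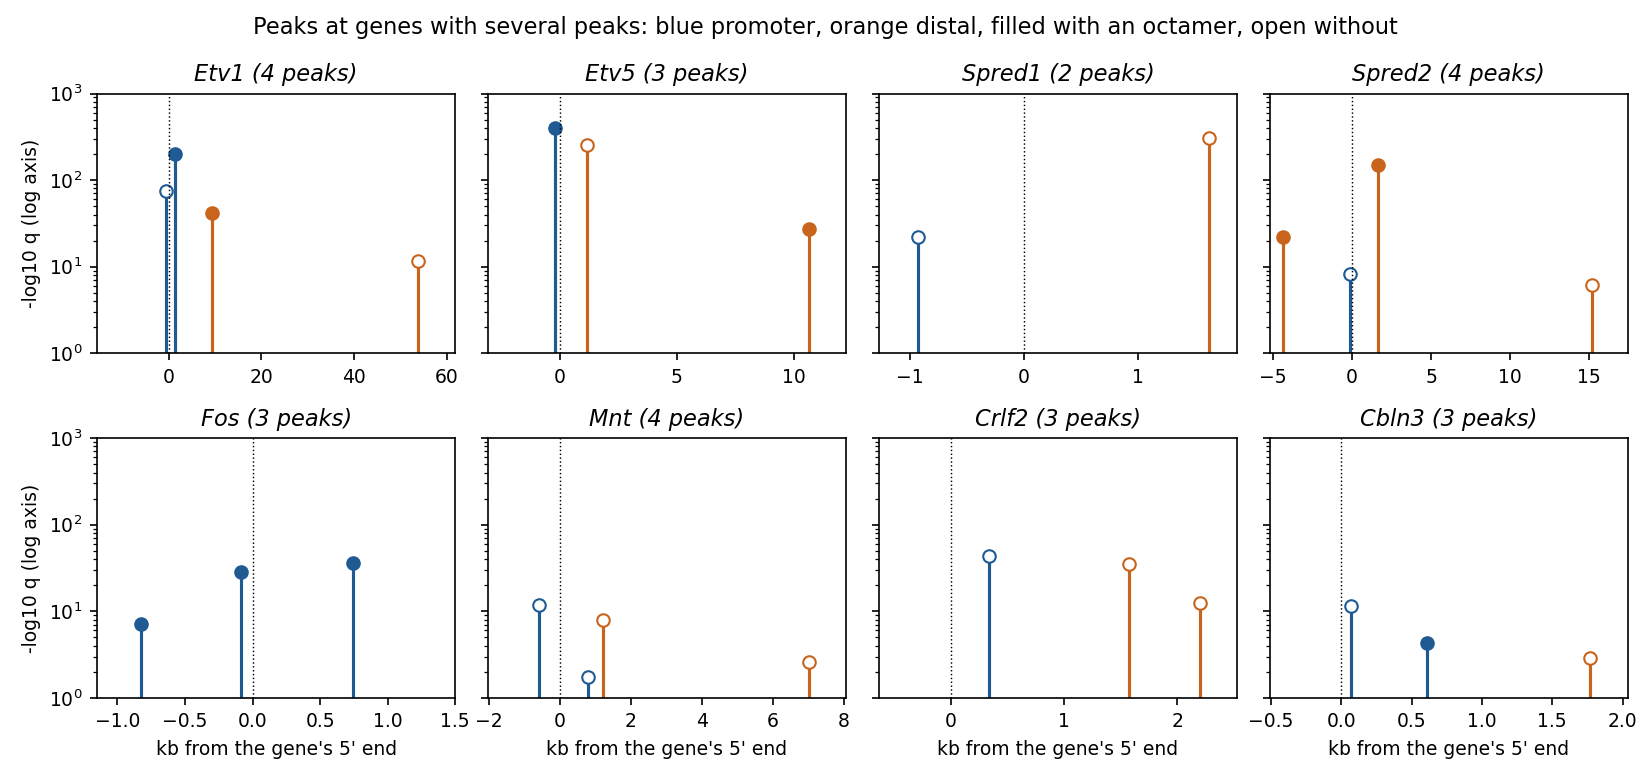
The −log10 q of each peak (y axis, log scale) against its distance from the gene's 5′ end (x axis, kb, positive downstream) at 8 genes with several peaks. Blue is a promoter peak, orange a distal peak, and filled circles have an octamer within 50 bp of the summit. At Spred1 and Spred2 the highest peak lies in the first intron, at 307 and 151, while at Etv5 it lies at the promoter, at 398.

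Of 39 genes of the cascade, 8 had a peak, 7 of them within 1 kb of a start, where all protein-coding genes stood at 7.24% and 5.04%. At a −log10 q of at least 3 the count was 5, beside 4.63% of all protein-coding genes. Shc4, an adaptor that links receptor tyrosine kinases to RAS, reached 58.1 and was the only one over 10. The related neuronal adaptor Shc3, counted with the CIC targets, reached 72.7 in a peak of 4 summits 88 bp upstream of the gene. The other cascade genes were Rras at 5.99 (a peak 2082 bp upstream, in an intron of Scaf1), Rps6ka5 at 5.85, Frs3 at 4.45, Shoc2 at 3.16, Grb2 at 2.80, Rps6ka2 at 1.88 and Frs2 at 1.44. Of 54 receptor tyrosine kinases 4 were bound (7.41%, 2.92 to 17.6): Alk at 20.5, Ephb3 at 7.78, Fgfr2 at 1.86 and Igf1r at 1.36. That share is near the 7.24% of all protein-coding genes. At a −log10 q of at least 3 the count was 2 of 54, beside 4.63%. The Fgfr2 count rests on a very long gene model, whose peaks lie no nearer than 571826 bp to a basic start of Fgfr2.

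Immediate early genes, which neurons switch on within minutes of activity, had 8 bound members of 33, 7 of them at the promoter, where all protein-coding genes stood at 7.24% and 5.04%. Fos, a subunit of AP-1, had 3 promoter peaks, at 7.14, 28.1 and 35.7, and each of them held an octamer. Maff reached 26.8, Nr4a1 15.5, Fosl1 14.7 and Egr1 12.0, while Fosb, Srf and Nr4a3 stayed at 7.30, 3.31 and 1.49. The cell cycle gene Ccnd1, which is also a CIC target, had a peak with an octamer 1487 bp upstream of the gene at 20.02. Of the 24 circadian clock genes 7 were bound, set against the same 7.24%. The promoter of Per2, a core repressor of the clock, reached 52.9 with an octamer, Nr1d2 13.9, Nr1d1 8.22, Per1 4.53, and Tef, Dbp and Cry1 between 1.44 and 3.16.

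Several of the 25 strongest peaks lay at promoters outside the RAS-ERK pathway. They included Hsd17b12, an enzyme of fatty acid elongation, at 425, Hsd11b1, which reactivates glucocorticoids, at 176, Rhebl1, a Rheb-like GTPase, at 174.1, and Mafg, a small Maf partner of bZIP factors, at 149. Mettl14, a subunit of the RNA m6A methyltransferase, reached 119, Ankrd40 116, and Ube2n, a ubiquitin-conjugating enzyme, 113. Further promoters were those of Vgf, a neurosecretory precursor, at 83.3, Unc13a, which primes synaptic vesicles, at 82.1 and Zdhhc5, a palmitoyltransferase, at 96.0. The promoter of the lipid kinase gene Pip4k2b reached 95.1. An octamer lay at the summits of Hsd11b1, Mafg, Ube2n, Zdhhc5 and Unc13a, and none lay within 50 bp of those of Hsd17b12, Rhebl1, Mettl14, Ankrd40, Vgf and Pip4k2b. Mettl14 had an octamer at a neighbouring summit of the same peak, which reached 99.0.

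Promoter peaks, those within 1 kb of any annotated start, made up 1033 of the 1660 (62.2%, 59.9 to 64.5). They clustered just upstream: 714 (69.1%) lay upstream of the start, and the median summit was 76 bp upstream. Within 100 bp of a start lay 39.9% of them, within 250 bp 75.1% and within 500 bp 90.2%. A promoter shared by a pair of divergent protein-coding genes held 125 (12.1%, 10.3 to 14.2), where 9.84% of all protein-coding genes have such a promoter. Median −log10 q was 4.39 at these and 3.84 at the other promoter peaks.

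Windows of 50 bases to either side of a promoter summit held 60.9% ± 9.16 G and C (SD, n = 1033), against 51.8% ± 7.24 at distal summits (n = 627) and 59.6% ± 13.04 in the 39535 windows of the same length centred on starts of protein-coding transcripts. The observed over expected CpG ratio was 0.741 at promoter summits, 0.253 at distal summits and 0.606 at those starts.

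**Figure D3:**
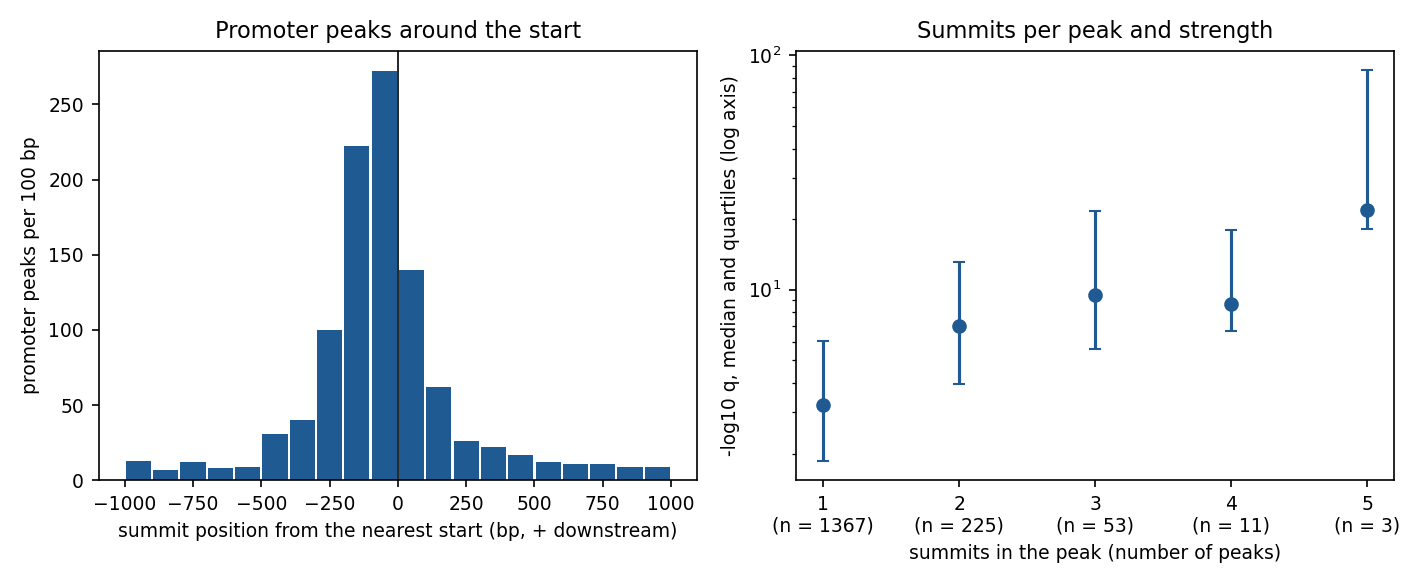
Left, number of promoter peaks per 100 bp (y axis) by the position of the summit from the nearest annotated start (x axis, bp, positive downstream), with 69.1% upstream of the start. Right, median −log10 q with quartiles (y axis, log scale) by the number of summits in the peak (x axis), rising from 3.23 in 1367 peaks with 1 summit to 7.01 in 225 peaks with 2; the 1 peak with 8 summits is not drawn.

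Distal peaks numbered 627 (37.8%, 35.5 to 40.1). Introns held 392 peaks, 185 of them in a first intron, the space between genes 197, coding exons 15, untranslated regions 13 and exons of non-coding transcripts 10. Median −log10 q was 3.31 in introns, 3.84 between genes and 2.32 in coding exons, next to 3.92 at promoters. Protein-coding genes with an intronic peak in their body or within 5 kb upstream were long, with a median length of 108 kb (n = 317). The intron need not be that of the gene counted. Median length was 21.5 kb for genes with a promoter peak and 17.6 kb for all protein-coding genes. A long gene offers more bases in which a peak can fall, and the part of length in these counts was not tested. By distance to the nearest protein-coding start, 122 distal peaks lay within 5 kb, 171 at 5 to 20 kb, 222 at 20 to 100 kb and 112 beyond 100 kb, with median −log10 q between 3.31 and 3.62 in every class.

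Of the 25 strongest peaks 9 were distal. Next to the peak near Mrc2 and those in Spred1, Spred2 and Etv5, the peak 174930 bp from Sipa1l2 reached 370, the peak in an intron of Clstn2, a synaptic calsyntenin, 320, the peak in the first intron of Brinp2 101.4, the peak 268603 bp from Cyp26b1, which degrades retinoic acid, 95.9, and the peak 6378 bp from Zfp869 87.8. Sites further down lay in the first intron of Epc2 at 79.8, 258998 bp from Cd83 at 78.1, in Sptbn4 at 64.6, in Galk1 at 61.8, and 149762 bp from the neuropeptide gene Cartpt also at 61.8. The peak 1058 bp upstream of Id1, an inhibitor of bHLH factors and a BMP target, reached 58.9. For the intergenic sites the gene named is only the nearest start, and nothing measured here links them.

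More than 1 summit was called in 293 peaks (17.7%, 15.9 to 19.6): 225 had 2, 53 had 3, 11 had 4, 3 had 5 and 1 had 8. Neighbouring summits of a peak lay 149 bp apart at the median (quartiles 116.5 and 202.5, range 32 to 515, 383 gaps), and 56.4% of the gaps measured 100 to 200 bp. Multi-summit peaks had a median −log10 q of 7.40 (quartiles 4.16 and 14.5), single-summit peaks 3.23 (1.86 and 6.02). They made up 43% of the 100 strongest peaks and 8.80% of the 1000 weakest. Promoters held 64.5% of them (58.9 to 69.8) and 61.7% of the single-summit peaks (59.1 to 64.3). The number of reads in a peak bears on both its strength and its number of summits, and it is not known here, so these cannot be told apart.

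In 149 of the 293 multi-summit peaks (50.9%) the summit next in strength reached at least 50% of the −log10 q of the strongest. In the 5-summit peak in the first intron of Spred2 the values were 2.80, 103, 36.0, 38.9 and 151 in genome order, and the octamers lay at the summits of 103 and 151. The 3 summits in the first intron of Spred1 reached 1.44, 307 and 300, and of the last pair, 165 bp apart, the one at 300 held the octamer within 50 bp. The Spred1 promoter peak also had 5 summits, at 5.56, 9.57, 21.8, 2.56 and 3.73. The peak with most summits, in an intron of the imprinted zinc finger gene Peg3, spanned 1522 bp with 8 summits between 2.50 and 17.2 and no octamer at any. Past the 3′ end of Stmn2 5 summits between 8.56 and 14.7 lay within 473 bp. An octamer was found at some summit of 47 of the 293 multi-summit peaks (16.04%, 12.3 to 20.7) and at 76 of 1367 single-summit peaks (5.56%, 4.46 to 6.90), and a peak with more summits has more windows searched.

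Peaks also lay close to each other. Within 10 kb of another peak were 294 (17.7%, 15.9 to 19.6), in 135 clusters: 114 pairs, 18 of 3 peaks and 3 of 4. In 106 clusters (78.5%) the peaks shared a bound gene. Clusters of promoter peaks alone numbered 63, of promoter and distal peaks 38, and of distal peaks alone 34. Median −log10 q was 3.31 for clustered and 3.84 for solitary peaks, while clustered peaks made up 23% of the 100 strongest (15.8 to 32.2) and 18.4% of the 1000 weakest (16.1 to 20.9). An octamer lay at 8.50% (5.83 to 12.3) of clustered and 6.30% (5.13 to 7.71) of solitary peaks.

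The clusters of 4 lay at Crlf2, a cytokine receptor subunit gene, at Mnt, a MAX-binding repressor, and at the neighbours Gtpbp6 and Zfp605. At Crlf2 the values were 2.32, 12.3, 35.4 and 43.8 within 4276 bp, with no octamer at any, at Mnt they ran from 1.75 to 11.7, and at Gtpbp6 and Zfp605 from 1.86 to 4.39. Some clusters of 3 were runs of neighbouring promoters, as at Cbarp, Atp5d and Midn (34.6, 2.32 and 7.80). Others were inside or beside 1 gene. Cbln3, a granule cell cerebellin, had peaks at 11.5, 4.29 and 2.90 within 1704 bp, and Fat2, a granule cell cadherin, at 1.49, 6.80 and 2.31.

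Counted by gene, 1322 of the 1505 bound genes had 1 peak, 147 had 2, 28 had 3, 7 had 4, and the read-through model Gm20388 had 12 because it spans many other genes. For 277 genes the strongest peak reached 10. A peak counted for every gene it met, so 283 peaks counted for at least 2 genes and 234 (14.1%) for none. Besides the genes above, those with at least 3 peaks included Rab3c, a synaptic vesicle GTPase, with a best −log10 q of 32.7, Kif5c, a neuronal kinesin, at 14.3 and Atp2b2, a calcium pump of Purkinje cells, at 8.07.

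An octamer lay within 50 bp of the summit in 111 peaks, 46 at promoters (4.45%, 3.35 to 5.89) and 65 distal (10.4%, 8.22 to 13). Flanking windows 500 bp to either side held one in 1.54%, and the windows at starts of protein-coding transcripts in 0.895%. The share changed with rank differently at promoters and at distal sites, although the difference was not tested. Among promoter peaks it was 50% at ranks 1 to 25 (8 of 16 peaks), 7.25% (3.13 to 15.9) past rank 100 up to 200 and 2.36% (0.807 to 6.72) past rank 200 up to 400. Among distal peaks it was 33.3% at ranks 1 to 25 (3 of 9 peaks, 12.1 to 64.6), and still 29.0% (16.1 to 46.6) and 23.3% (15.1 to 34.2) in those last 2 classes. Past rank 400 the distal share was 9.63%, 4.22% and 3.28% in successive classes ending at ranks 800, 1200 and 1660, and the promoter share 3.02%, 2.99% and 1.083%. Over the 100 strongest peaks together it was 32.8% at promoters (20 of 61) and 33.3% at distal sites (13 of 39). Median −log10 q with and without an octamer was 20.1 and 3.84 at promoters and 10.9 and 3.31 at distal sites.

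**Figure D4:**
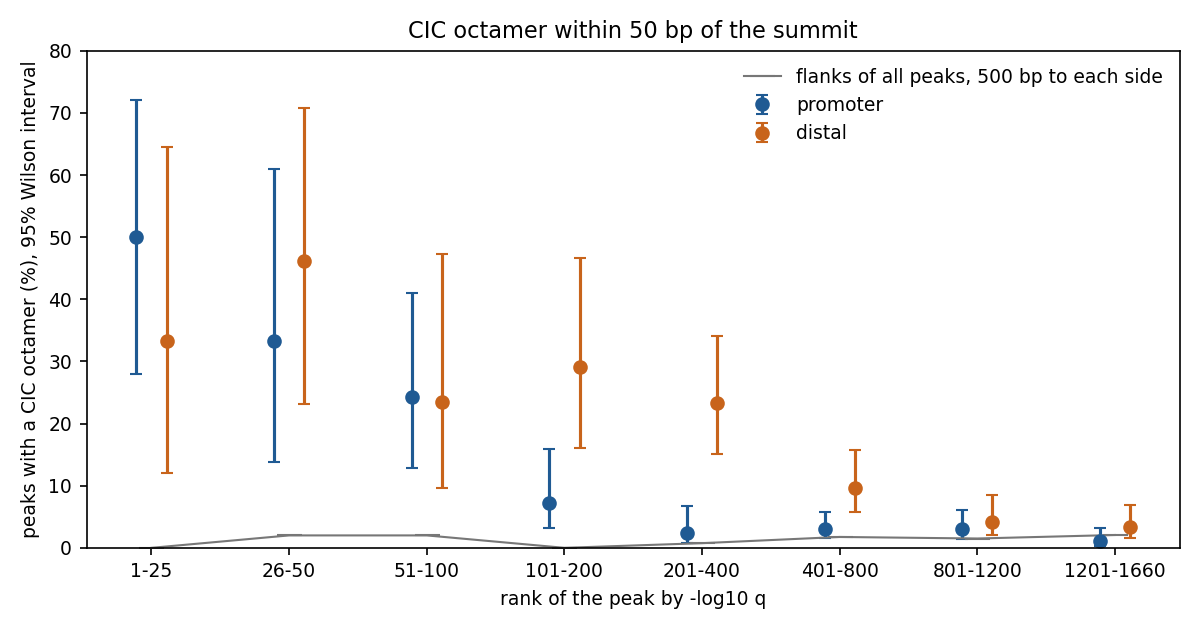
Share of peaks with a CIC octamer within 50 bp of the summit (y axis, %, with 95% Wilson intervals) by rank (x axis) for promoter (blue) and distal (orange) peaks, with the share in flanking windows 500 bp away as a grey line. Past rank 200 and up to 400 the promoter share was 2.36% and the distal share 23.3%.

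Of the 137 octamers in these windows, 84 read TGAATGAA, 40 TGAATGGA, 12 TCAATGAA and 1 TCAATGGA. A window with at least 2 octamers was found at 17 peaks. In 7 of them, at Elfn1, Foxe1, Rasgef1c, Apbb1, Commd9, Nfkbie and Zmiz1, octamers started 4 bp apart as in the Rasgef1c sequence above, with −log10 q from 3.47 to 41.2. In the other 10 they started 10 to 72 bp apart, with −log10 q from 1.44 to 922. Those include the 12 bp near Mrc2 and the 21 bp at Ube2n seen above, 16 bp in an intron of Cntnap2, and 54 bp at Shc4.

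Within 50 bp of the strongest summits the core was found more often than the octamer. Of the 25 strongest peaks 11 had an octamer within 50 bp, 17 within 100 bp and 19 within 200 bp, and TGAATG within 50 bp was at 19. Of the 100 strongest the counts were 33, 46, 51 and 58. The core counts include windows whose octamer holds the core, and windows without an octamer were not counted apart. In the flanks of the 100 strongest the core was in 7.5% of windows. The bases before the core stood out on reading the sequences above and were then counted, so this count is a description of the same sites. TTA or TTG came before TGAATG in 34 of 78 cores (43.6%, 33.1 to 54.6) at ranks 1 to 100, in 17 of 64 (26.6%) past rank 100 up to 400, in 8 of 139 (5.76%) in the remaining peaks, in 4.26% of cores in the flanks and in 3.997% at starts. GG followed the core in 24.4% of those at ranks 1 to 100, 6.25% past rank 100 up to 400, 10.1% in the remaining peaks and 9.04% in the flanks.

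Words of general promoter factors were also found at promoter summits. The GC box GGGCGG, on either strand, was within 50 bp of 38.3% of promoter summits, in 15.2% of their flanks and in 26.8% of windows at starts. CCAAT was at 20.9%, 9.78% and 12.2%, and the ETS word CCGGAAG at 6.78%, 1.79% and 6.22%. A match says only that the letters are present.

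Beyond the RAS-ERK pathway, gene lists of the cerebellum and of general cell functions were counted against the same 7.24%. Among cell type lists, 8 of 25 granule cell genes were bound (32%, 17.2 to 51.6): Nfib at 11.6, Cbln3 at 11.5, Tiam1 at 7.01, Fat2 at 6.80, the divergent Zic1 and Zic4 through 1 shared peak at 2.07, Zic2 at 1.83 and Nfia at 1.44. The count was 4 of 25 at a −log10 q of at least 3, beside 4.63% of all protein-coding genes. It was also 4 within 1 kb of a start, beside 5.04%. Of 33 Purkinje cell genes 4 were bound, Inpp5a, an inositol phosphatase, at 41.0, Atp2b2 at 8.07, Plcb4 at 3.84 and Plcb3 at 2.80. Within 1 kb of a start 1 of the 33 was bound, beside 5.04% of all protein-coding genes. None of 16 inhibitory interneuron genes (interval to 19.4%) and none of 22 oligodendrocyte genes (to 14.9%) had a peak. Of 24 genes of astrocytes and Bergmann glia only A2m did, at 2.80, and of 25 of microglia and vessels only Cx3cr1, at 1.44. The Cx3cr1 count rests on a long gene model, whose peaks lie 43720 and 97340 bp from a basic start of Cx3cr1. RNA was not measured in these libraries, so these lists say where CIC was enriched and not which cells were present. Granule cells make up most cerebellar nuclei, and their part in these counts was not tested.

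**Figure D5:**
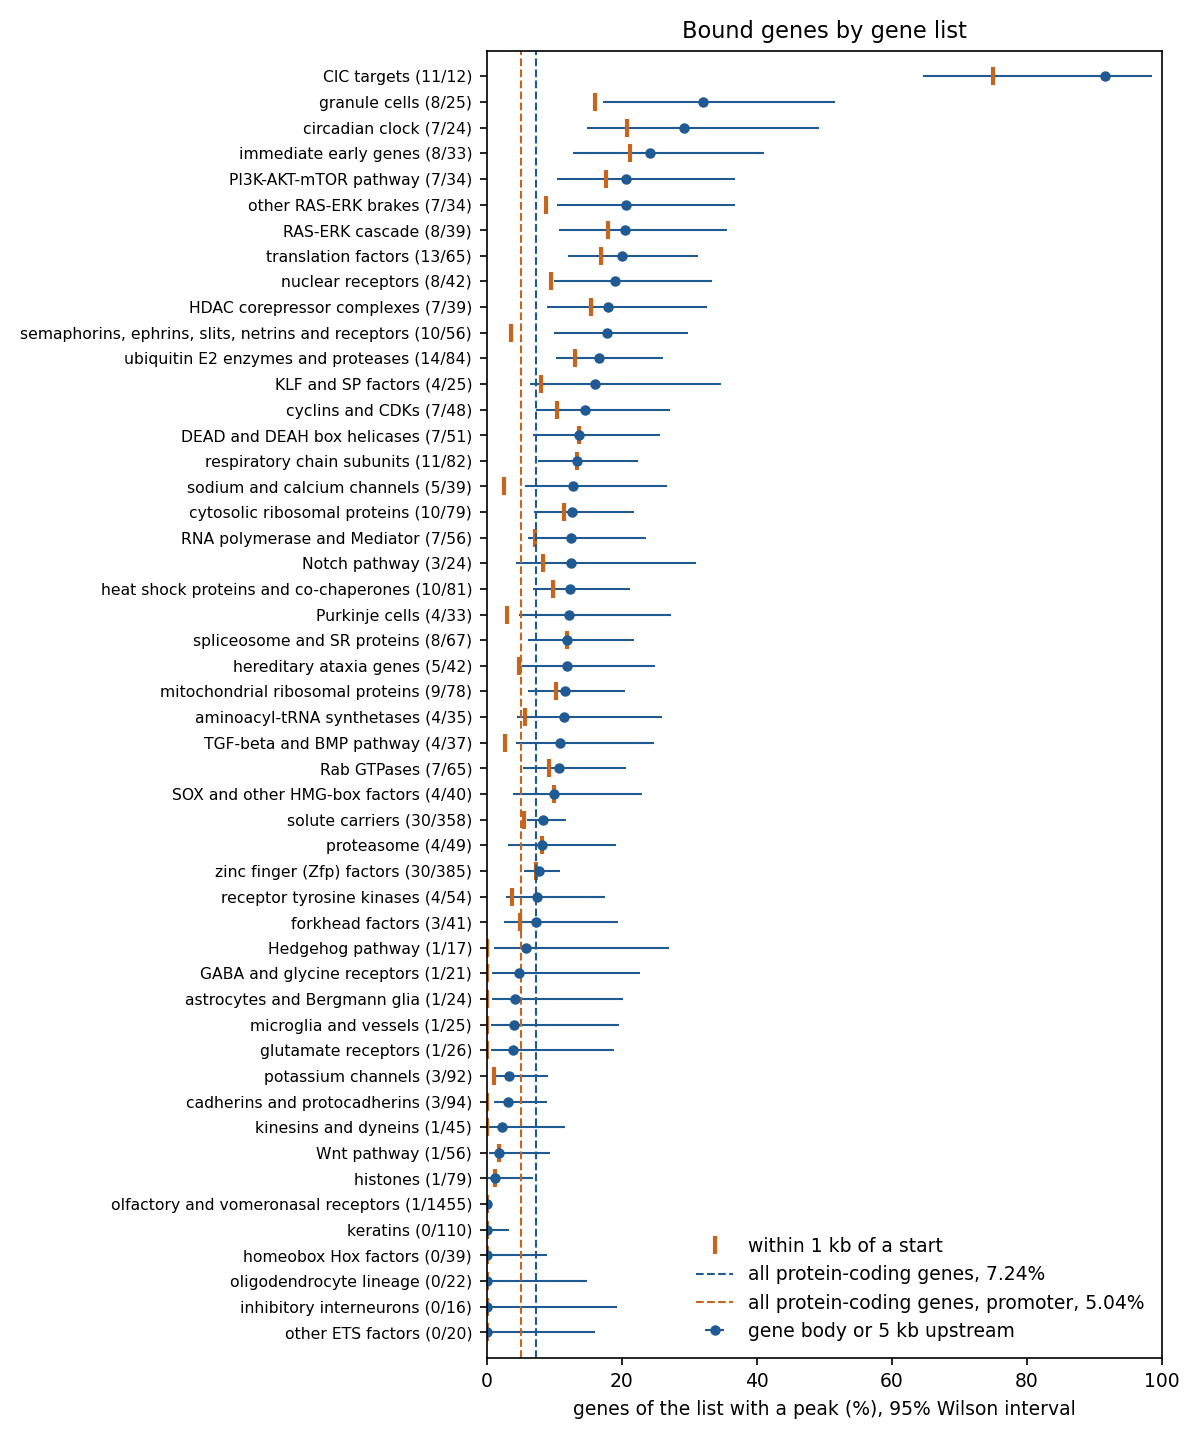
Percent of the genes of each list with a peak in the gene body or 5 kb upstream (blue points, 95% Wilson interval) or within 1 kb of a start (orange marks). The list of 6 genes of the complex and its partners in the study is not drawn. Dashed lines are all protein-coding genes, at 7.24% and 5.04%. The CIC targets stand at 91.7%, and 5 lists have no bound gene.

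PI3K-AKT-mTOR genes were bound at 7 of 34, with the AKT phosphatase Phlpp1 at 14.3 and Foxo3 at 8.20. HDAC corepressor complexes were bound at 7 of 39, led by Hdac4 at 42.4, Sin3a at 13.6, Rbbp4 at 8.68 and Hdac3 at 7.54. Nuclear receptors were bound at 8 of 42, with Esrra, a regulator of mitochondrial genes, at 34.9 and the thyroid hormone receptor Thrb at 16.3. Notch genes were bound at 3 of 24, Rbpj, its DNA-binding factor, at 36.1, Maml3 at 25.3 and Numbl at 1.44. The Hedgehog list had 1 of 17, the receptor gene Ptch1 at 11.9 in a non-coding transcript inside it, and the Wnt list 1 of 56, Dvl2 at 13.1. Axon guidance genes were bound at 10 of 56, led by Sema4d at 37.5, Robo1 at 24.3 and Plxna4 at 23.9. Within 1 kb of a start the count was 2 of 56 (3.57%, 0.985 to 12.1), beside 5.04% of all protein-coding genes.

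Translation factors had 13 of 65 (20%, 12.1 to 31.3), Eif1 at 24.4, Eif5a at 21.004, Eif4a1 at 16.01 and Eef1a1 at 15.2. Ubiquitin E2 enzymes and proteases had 14 of 84, respiratory chain subunits 11 of 82, cytosolic ribosomal proteins 10 of 79 and mitochondrial ones 9 of 78. The highest values in these 4 lists after Ube2n were Atp5d at 34.6 (through the peak at the Cbarp promoter, which lies inside the annotated Atp5d gene), Usp36 at 20.03, Usp29 at 17.2 (the peak described above in Peg3) and Rps26 at 17.0. Zinc finger genes of the Zfp series, with 30 of 385 (7.79%, 5.51 to 10.9), and solute carriers, with 30 of 358 (8.38%, 5.93 to 11.7), were near the share of all genes. Histone genes had 1 of 79, potassium channels 3 of 92, cadherins and protocadherins 3 of 94, olfactory and vomeronasal receptors 1 of 1455, and Hox genes 0 of 39 (to 8.97%) and keratins 0 of 110 (to 3.37%).

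Of genes of hereditary ataxia 5 of 42 were bound, beside 7.24% of all protein-coding genes, and 2 within 1 kb of a start, beside 5.04%. Among the 5 were Afg3l2, a mitochondrial protease, at 10.1, the ubiquitin ligase Stub1 at 6.63, Fgf14 at 5.42 and Ppp2r2b at 1.83. The expanded gene itself had no peak: the nearest peak to Atxn1 lay 253177 bp from it at 1.44, and the nearest to its paralogue Atxn1l 1181982 bp away. En1, whose locus drives Cre, had its nearest peak at 764766 bp. Of the 6 genes of the complex and its partners in the study, 2 were bound, Zbtb5 at 14.4 and Cic at 62.02.

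Cic had 3 peaks: 182 bp upstream of its start at 2.75, in its first intron 529 bp downstream at 62.02, with 3 summits at 9.63, 13.5 and 62.02, and at an inner start 14225 bp into the gene at 2.302. None held an octamer within 50 bp. Cic is the gene altered in the CIC KO control, and the part of its changed allele in these peaks was not tested. Its 5-Mb bin, at 25 to 30 Mb of chromosome 7, held 31 peaks, the most of 503 bins (median 2), 28 of them at promoters. The bins to either side held 4 and 6 peaks. Per 1000 protein-coding genes it held 217 peaks, those to either side 28.2 and 56.1, next to 79.8 over chromosomes 1 to 19, 239 at 70 to 75 Mb of chromosome 8, 268 at 20 to 25 Mb of chromosome 16, which includes Etv5, and 325 at 50 to 55 Mb of chromosome 13. Per chromosome the density ran from 0.344 peaks per Mb on chromosome 3 to 1.33 on chromosome 11.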

How the data were processed

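CIC was measured by CUT&RUN in cerebellar nuclei of 4 154Q and 4 CIC KO mice. Per the labels and the study's methods, the authors trimmed reads (Trimmomatic 0.36), aligned them to mm10/GRCm38 (Bowtie2 2.3.4.1), kept fragments under 120 bp with SAMtools 1.10 and bedtools 2.29.1, merged replicates, called peaks with MACS3 in paired-end mode at a q of 0.05, and removed blacklisted and repeat-rich peaks. The deposited value is the −log10 q at each summit. Merging hides the spread between mice, and depth per sample is not given in the list.

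Summits of 1 peak number were collapsed to the one with the highest −log10 q. Summits were placed against the GRCm38 annotation and 101-bp windows were searched for motifs with Python 3.11.15, pandas 2.3.3 and pysam 0.24.0. No difference was tested. The 95% Wilson intervals cover counting error over peaks only. The steps were tested on simulated data. Genes are named by a fixed rule: those nearest or holding the 25 strongest peaks, the 15 strongest distal peaks, the 10 peaks with most summits and the 10 largest clusters, and, for the gene lists, the 6 strongest bound members, or all in lists of at most 45 genes. The weakest peaks and those with several octamers were named after their values were seen. The members and lists were chosen with earlier results of these data known. Alternatives changed the q, promoter and cluster distances, the window and the motif. Libraries of H3K27ac, IgG, WT and 154Q[V591A;S602D] mice were not used here. Not every gene that the naming rule covers is reported here.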

Additional observations from a re-analysis of the deposited data

Results flagged for a closer look

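Outside chromosomes 1 to 19 the same list held 30 peaks on the sex chromosomes: 21 on X and 9 on Y. They came up because these chromosomes are left out of every count above and their −log10 q reached 122 at Gm47283 on Y and 97.6 at Gm21887 on X. Both lie in the region where X and Y match in sequence, so the origin of those reads is uncertain, and the sex of the mice was not compared between groups. The median −log10 q of the 30 peaks was 4.54, 14 lay at promoters, and an octamer lay at 0 of the 30.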

How the results depend on the processing

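No paired analysis was possible because the 4 libraries of each group were merged before the list used here was called, and no replicate could be left out of that list. Of 56 values recomputed under other settings, 33 stayed and 23 moved. A share stayed if it lay within its interval, and a count if it lay within 1.5 times. A median −log10 q stayed if it lay within the quartiles of the reported peaks, which is a loose rule. At a −log10 q of at least 3, 978 peaks and 963 bound genes remained, multi-summit peaks were 26.8%, clustered peaks 9.82%, and octamers lay at 9.92% of peaks, 6.56% of promoter peaks and 15.9% of distal peaks. The promoter share was 56.1% within 500 bp of a start, 68.9% within 3 kb and 58.9% with protein-coding starts alone. Multi-summit peaks were 14.8% when summits had to lie over 100 bp apart. Clustered peaks were 14.1% at 5 kb, 24.4% at 25 kb and 33.8% at 50 kb. Octamers in all, promoter and distal peaks were 3.73%, 2.03% and 6.54% within 25 bp of the summit, 9.70%, 6.68% and 14.7% within 100 bp, and 4.096%, 2.23% and 7.18% for TGAATGAA alone. These shares move by construction with the window or distance. Distal peaks held the octamer more often than promoter peaks under each of these. For the gene lists, 34 of 102 counts moved under 2 alternatives chosen after seeing the data, a −log10 q of at least 3 and a start within 1 kb, and the share of all genes then was 4.63% and 5.04%. Without replicates or depth, a gene without a peak was not detectably enriched, which does not show that CIC is absent there.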
